A study of Mus musculus with 16 samples.

Results

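The endocannabinoid genes examined here are the receptors Cnr1, Cnr2 and Gpr55, the synthesis enzymes Dagla, Daglb and Napepld, and the breakdown enzymes Faah, Mgll, Naaa and Abhd6. These 10 genes were chosen by name, and every non-control probe whose RefSeq accession belonged to one of them was taken, which gave 14 probes among 55681 on the array. Of the 14 probes, 12 probes of 9 genes cleared the detection filter (a spot well above background on 4 or more of 16 arrays) and were tested. The probe for Faah and 1 of the 4 probes for Mgll were not well above background on any array.

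Skeletal muscle RNA came from male mice aged 21 to 23 weeks, with 4 biological replicates per group and 1 single-dye Agilent array for each. The mice carried a Cnr1 gene flanked by LoxP sites. CB1KO denotes Skm-CB1R-/- animals, in which a Cre recombinase driven by the ACTA1 (skeletal muscle actin) promoter was meant to delete the gene in muscle fibres, and WT denotes Skm-CB1R+/+ littermates. Each genotype was fed for 15 weeks on a standard diet (SD) or on a diet high in fat and sugar (HFHS). Fat supplied 16.7% of kJ in SD and 49.2% in HFHS, and sugar 12.4% and 32.2%. Both genotypes are written as Cre-positive in the growth protocol, and genotype was taken from the sample titles. A diet tag contradicts the titles of the CB1KO_SD and WT_HFHS samples, and the titles were followed. An assignment to vehicle or S961 (an insulin receptor antagonist) is mentioned in the protocol but is not given for any sample, and the muscle dissected is not named. Since the promoter acts in muscle fibres, other cells of the dissected tissue keep an intact Cnr1 gene.

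Endocannabinoids are lipid messengers made from membrane phospholipids on demand. Diacylglycerol lipases (Dagla, Daglb) release 2-arachidonoylglycerol, which monoacylglycerol lipase (Mgll) and Abhd6 hydrolyse, while Napepld forms anandamide and related N-acylethanolamines, which Faah and Naaa hydrolyse. Cannabinoid receptors CB1 (Cnr1) and CB2 (Cnr2) couple to inhibitory G proteins, CB1 being best known from neurons and metabolic tissues and CB2 from immune cells.

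The arrays came from 2 slides. Slide 1 held the SD arrays and slide 2 the HFHS arrays, and the effects of diet and slide cannot be told apart. Between 56.7% and 75.04% of non-control spots per array were well above background. The SD of log2 signal over spots was 2.86 on CB1KO_SD replicate 2, the lowest, and 3.97 on CB1KO_HFHS replicate 1, the highest. All 8 skeletal muscle markers (among them Acta1 and Ckm) were well above background on every array. The summed level of 6 slow fibre markers ran from 2.22 to 6.44 in WT_SD, 6.36 to 8.63 in CB1KO_SD, 2.44 to 8.51 in WT_HFHS and 2.81 to 8.22 in CB1KO_HFHS, so arrays within a group differed widely in fibre type signal. Levels here and below are log2 intensities relative to the array's 75th percentile and are compared only within a probe. In these tissue samples, fewer cells of a type and less RNA per cell cannot be told apart.

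No probe of the 10 genes passed the threshold (limma, Benjamini-Hochberg adjusted p under 0.05 over 40662 tested probes) in any of the 6 comparisons. Between genotypes, 0 of 12 probes were called on SD, against 0.00246% of all tested probes; 0 of 12 on HFHS, against 0.231%; and 0 of 12 averaged over diets, against 0.787%. The genotype-by-diet interaction called 0% of all probes, and so did diet in WT mice. Diet in CB1KO mice called 0 of the 12 and 0.0123% of all. At an unadjusted p under 0.05, none of the 12 passed on SD (8.79% of all probes), none on HFHS (9.11%), 1 averaged over diets (Dagla, 14.7%), none in the interaction (3.39%), none for diet in WT (5.75%) and 2 for diet in CB1KO (Naaa and Gpr55, 9.64%). With so few probes called, 0 of 12 is near the background. For each of the 14 probes, the ranges of groups next to each other in the order of means overlapped. In the pairwise comparisons 0 of 12 probes had groups without overlap, against 4.06% of all tested probes for genotype on SD, 9.79% for genotype on HFHS, 5.19% for diet in WT and 3.75% for diet in CB1KO.

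**Figure D1:**
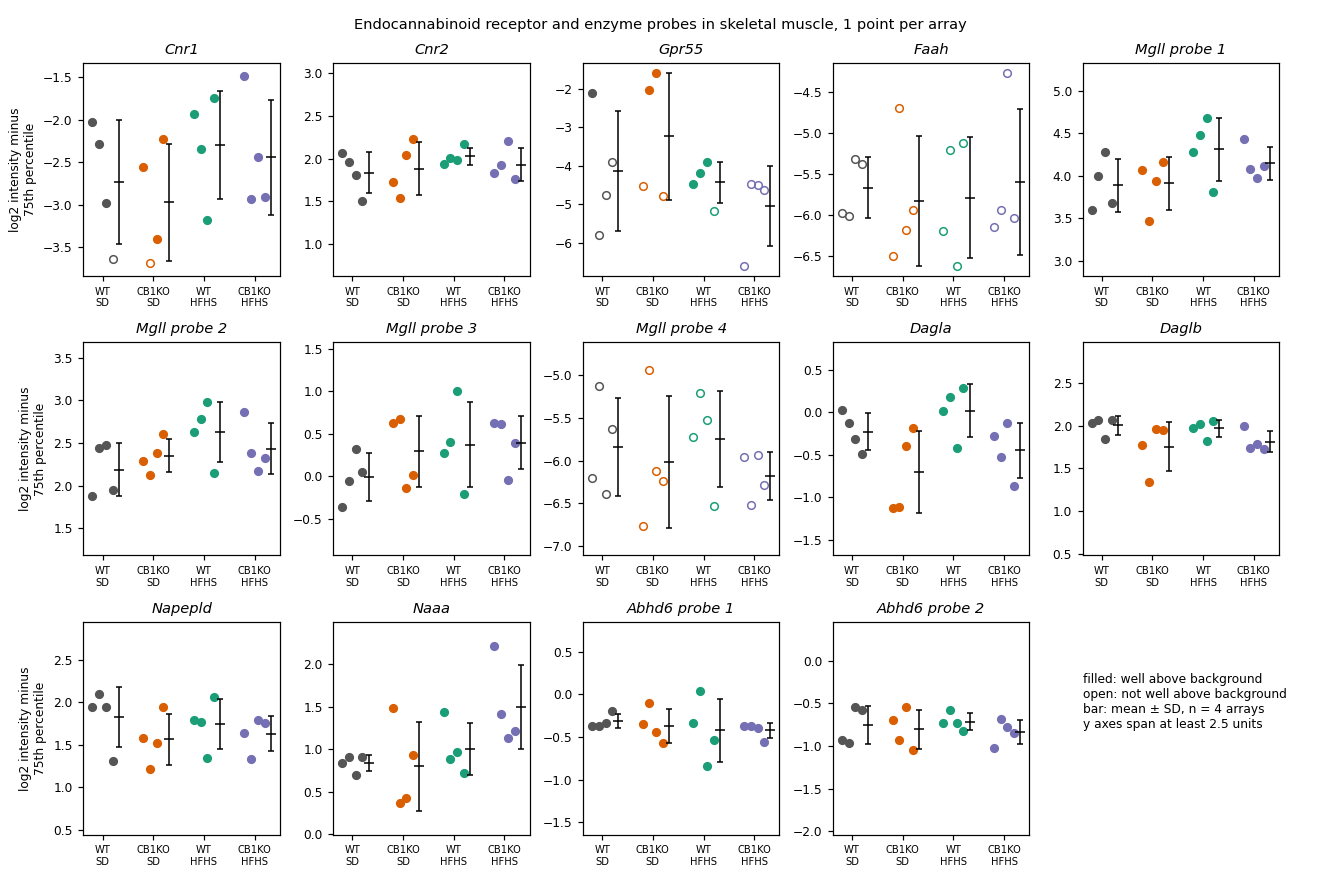
Log2 intensity minus the array's 75th percentile (y axis) for all 14 probes in the 4 groups (x axis), 1 point per array, filled where the spot was well above background and open where it was not; bars are the mean ± SD of 4 arrays. For each probe, groups next to each other in the order of means overlap, and all Faah and Mgll probe 4 points are open.

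The receptor Cnr1, the gene targeted in these mice, was dim but well above background on 14 of 16 arrays (probe A_55_P1953753, NM_007726). Its level was -2.03, -2.28, -2.98 and -3.64 in WT_SD, and -2.56, -3.69, -3.41 and -2.23 in CB1KO_SD. On HFHS it was -1.93, -2.34, -3.18 and -1.75 in WT and -1.49, -2.93, -2.44 and -2.91 in CB1KO. WT_SD replicate 4 and CB1KO_SD replicate 2, the lowest values, were not well above background, and values of both genotypes were interleaved on both diets. The mean difference, CB1KO minus WT averaged over diets, was -0.19 ± 0.32 (SE), with a 95% interval of -0.88 to 0.50 (adjusted p = 0.800). On SD alone the interval was -1.22 to 0.74 and on HFHS -1.12 to 0.84, and all 3 intervals include 0. It is not known here whether the probe lies in the deleted part of the gene, so it does not check the genotype labels. Adipocytes also express Cnr1, and 5 adipocyte markers summed to 7.38 to 8.27 in WT_SD, 7.16 to 7.27 in CB1KO_SD, 7.33 to 7.82 in WT_HFHS and 7.11 to 8.34 in CB1KO_HFHS. Fabp4, the brightest of these markers, carried most of this sum, at group means of 7.12 to 7.45. The array with the highest adipocyte sum, CB1KO_HFHS replicate 1, also had the highest Cnr1 level. Other arrays did not follow this order. WT_SD replicate 3, with a sum of 8.27, had Cnr1 at -2.98. WT_HFHS replicate 4, with the lowest sum of its group (7.33), had Cnr1 at -1.75. For genotype averaged over diets 0 of 5 adipocyte markers were above 0, with a median of -0.38, and 0 passed. By diet, 0 of 5 were above 0 on SD (median -1.06) and 4 of 5 on HFHS (median 0.28). The Cnr1 difference was -0.24 on SD and -0.14 on HFHS. The part of these cells in the Cnr1 values was not tested.

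Cnr2, the CB2 receptor, was well above background on every array (A_55_P2146535, NM_009924). It measured 2.06, 1.96, 1.81 and 1.51 in WT_SD and 1.72, 1.53, 2.04 and 2.24 in CB1KO_SD. On HFHS, it measured 1.93, 2.01, 1.99 and 2.17 in WT and 1.83, 1.93, 2.20 and 1.76 in CB1KO. Group means lay between 1.84 and 2.02, and the genotype difference averaged over diets was -0.025 ± 0.12, with an interval of -0.28 to 0.23 (adjusted p = 0.937). Its sign turned with the scaling, to 0.026 under quantile normalization. B cells are a known site of Cnr2. Of 5 B cell markers, 4 passed the detection filter and 1 was well above background on all arrays. Macrophages are another such site, and of 6 macrophage markers 6 passed the filter and 5 were well above background on all arrays. The part of these cells in the Cnr2 values was not tested.

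Gpr55, a receptor for lysophosphatidylinositol that also binds some cannabinoids, was well above background on 6 of 16 arrays (A_55_P2087850, NM_001033290). In WT_SD the values were -2.11, -5.80, -4.75 and -3.90, of which only the first was well above background. CB1KO_SD gave -4.52, -2.04, -1.58 and -4.78, with the middle pair well above background. WT_HFHS gave -4.47, -4.18, -3.90 and -5.17, the first 3 well above background, and CB1KO_HFHS gave -6.61, -4.48, -4.49 and -4.63, none of them so. The probe thus held only a bound on 10 arrays, and the spread within SD groups was 1.56 and 1.65 (SD, n = 4). The lowest signal well above background differed between arrays, at -5.22 on WT_HFHS replicate 1 and -4.43 on CB1KO_HFHS replicate 2. Gpr55 stood at -4.47 and -4.48 on these arrays, so counts of arrays well above background partly follow the array. The fitted HFHS minus SD difference in CB1KO was -1.82 ± 0.85, with an interval of -3.64 to -0.0047 (adjusted p = 0.518). Of the arrays compared, 2 of 4 in CB1KO_SD and 0 of 4 in CB1KO_HFHS were well above background. The difference was -0.90 without CB1KO_SD replicate 2 and CB1KO_HFHS replicate 1. It was -0.58 under normexp background correction with quantile normalization. The genotype difference averaged over diets was 0.15 ± 0.60, with an interval of -1.14 to 1.43.

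Among the synthesis enzymes, Dagla had the smallest genotype p of the 12 probes and a lower mean in CB1KO on both diets. Dagla, the diacylglycerol lipase known chiefly from neurons, was well above background on every array (A_52_P127682, NM_198114). It measured 0.03, -0.13, -0.31 and -0.49 in WT_SD and -1.12, -1.11, -0.40 and -0.19 in CB1KO_SD. In HFHS mice it measured 0.02, 0.18, -0.42 and 0.29 in WT and -0.28, -0.52, -0.12 and -0.86 in CB1KO. CB1KO_SD replicates 1 and 2 were the lowest of all arrays, while replicates 3 and 4 lay within the WT_SD range, so the genotypes overlapped on both diets. Group means were -0.23 ± 0.22 (SD, n = 4) in WT_SD, -0.71 ± 0.48 in CB1KO_SD, 0.02 ± 0.31 in WT_HFHS and -0.45 ± 0.32 in CB1KO_HFHS.

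The Dagla difference was -0.48 ± 0.24 (SE) on SD (adjusted p = 0.615) and -0.46 ± 0.24 on HFHS (adjusted p = 0.614). Averaged over diets it was -0.47 ± 0.17, with an interval of -0.84 to -0.10 (limma, unadjusted p = 0.0159, adjusted p = 0.223). It thus failed the correction over all probes, of which 14.7% had an unadjusted p under 0.05 in this comparison. The median of all probes was itself -0.14 there, and relative to it Dagla was -0.34. Over 30 alternative analyses the averaged Dagla value ran from -0.56 to -0.39, with adjusted p between 0.0750 and 0.563. Of 6 Schwann and nerve markers 5 were tested and 0 passed, and the neurofilament gene Nefl was not well above background on any array. Their median genotype difference was -0.32 on SD, -0.31 on HFHS and -0.27 averaged over diets, with 1 of 5 above 0 each time. The summed level of the list was 3.71 to 4.57 in WT_SD, 3.32 to 4.62 in CB1KO_SD, 3.70 to 4.40 in WT_HFHS and 3.34 to 4.18 in CB1KO_HFHS. Slow fibre marker sums were also unlike between the SD genotypes (above). The part of nerve and of fibre type in the Dagla values was not tested.

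Daglb, the diacylglycerol lipase better known from macrophages and other peripheral cells, was read by 10 spots of 1 probe (A_51_P122582, NM_144915). Its values were 2.04, 2.07, 1.84 and 2.06 in WT_SD and 1.77, 1.35, 1.96 and 1.95 in CB1KO_SD. They were 1.98, 2.03, 1.82 and 2.05 in WT_HFHS and 1.997, 1.74, 1.79 and 1.73 in CB1KO_HFHS. The WT arrays lay close together on both diets, with SDs of 0.11 and 0.10 (n = 4), and the lowest array was CB1KO_SD replicate 2 at 1.35. Averaged over diets the genotype difference was -0.20 ± 0.10, with an interval of -0.42 to 0.01 (adjusted p = 0.368), and relative to the median of all probes it was -0.066.

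Napepld, the phospholipase D that forms N-acylethanolamines, was well above background on all arrays (A_55_P2024406, NM_178728). It stood at 1.95, 2.10, 1.94 and 1.31 in WT_SD and 1.59, 1.21, 1.52 and 1.94 in CB1KO_SD. The HFHS values were 1.79, 1.76, 1.35 and 2.07 in WT and 1.64, 1.34, 1.79 and 1.75 in CB1KO. The groups overlapped, with the highest array in WT_SD (2.10) and the lowest in CB1KO_SD (1.21). The averaged genotype difference was -0.19 ± 0.15, with an interval of -0.50 to 0.13 (adjusted p = 0.583). Relative to the median of all probes it was -0.050.

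**Figure D2:**
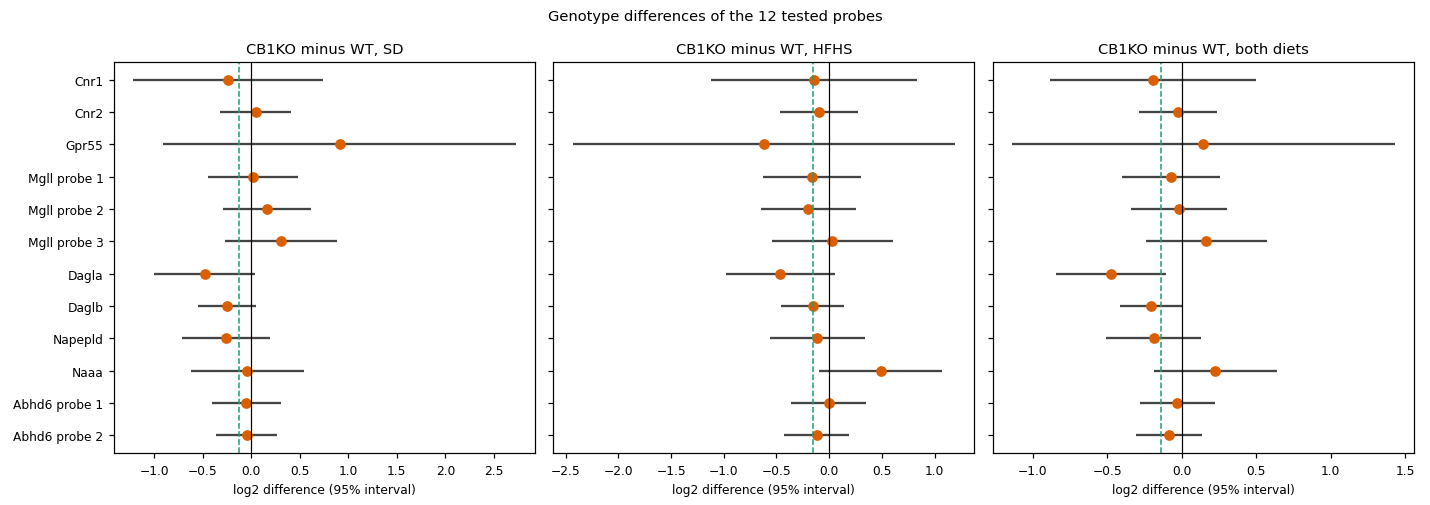
Log2 difference between genotypes, CB1KO minus WT (x axis, points, with 95% intervals as lines), for the 12 tested probes (y axis) on SD, on HFHS and averaged over diets; the solid line marks 0 and the dashed line the median of all 40662 tested probes. Only the averaged Dagla interval, -0.84 to -0.10, lies wholly on one side of 0.

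Among the breakdown enzymes, Mgll, which hydrolyses 2-arachidonoylglycerol and also monoacylglycerols from stored fat, had 4 probes. Probes 1 (A_55_P2063316) and 2 (A_55_P2114863) carry the accession NM_001166251. Probes 3 (A_55_P2063312) and 4 (A_55_P2063311) carry NM_001166250, another transcript of the gene. Probe 4 was not well above background on any array (-6.77 to -4.94), whereas the other 3 were on all 16.

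Mgll probe 1 gave 3.60, 4.00, 4.28 and 3.68 in WT_SD and 4.07, 3.47, 3.94 and 4.16 in CB1KO_SD. In HFHS mice it gave 4.27, 4.48, 4.68 and 3.81 in WT and 4.43, 4.07, 3.97 and 4.11 in CB1KO. The first 3 WT_HFHS arrays lay near or above the top of the WT_SD range, and the last lay within it. Probe 2 gave 1.88, 2.44, 2.47 and 1.95 in WT_SD, 2.29, 2.13, 2.38 and 2.60 in CB1KO_SD, 2.63, 2.78, 2.98 and 2.15 in WT_HFHS, and 2.86, 2.38, 2.18 and 2.32 in CB1KO_HFHS. For probe 2, WT_HFHS replicates 1 to 3 lay above all WT_SD arrays and replicate 4 among them. The HFHS minus SD difference in WT was 0.42 ± 0.22 for probe 1 (interval -0.04 to 0.88, adjusted p = 0.929) and 0.45 ± 0.21 for probe 2 (-0.01 to 0.90, adjusted p = 0.878). Neither passed, and diet coincided with slide. Adipocytes are rich in Mgll, and their summed markers overlapped between WT_SD and WT_HFHS (above). For diet in WT, 4 of 5 adipocyte markers were above 0, with a median of 0.55 beside -0.072 for all probes, and 0 passed. For diet in CB1KO 5 of 5 were above 0, with a median of 1.88, beside 0.24 and 0.083 for Mgll probes 1 and 2. For genotype on SD 0 of 5 were above 0, with a median of -1.06, beside 0.021 and 0.17 for these probes. The part of adipocytes in the Mgll values was not tested.

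Mgll probe 3 gave -0.36, -0.06, 0.32 and 0.06 in WT_SD and 0.63, 0.67, -0.14 and 0.02 in CB1KO_SD. On HFHS the values were 0.27, 0.40, 1.00 and -0.21 in WT and 0.62, 0.61, -0.04 and 0.39 in CB1KO. CB1KO_SD replicates 1 and 2 were above all WT_SD arrays here, a split that probes 1 and 2 did not show. Averaged over diets, the genotype difference was -0.072 ± 0.15 for probe 1 (interval -0.40 to 0.26), -0.016 ± 0.15 for probe 2 (-0.34 to 0.30) and 0.17 ± 0.19 for probe 3 (-0.24 to 0.57). The sign turned under quantile normalization for probe 1 (0.017) and probe 2 (0.036), and with array weights for probe 3 (-0.038).

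Over the 16 arrays, Mgll probes 1 and 2 followed each other with Pearson's r = 0.927 and Spearman's rho = 0.921 (permutation p = 1e-05 for each, the smallest that 1e+05 permutations can give; adjusted p = 4e-05 over 4 relations). Their r was 0.946 without the 2 arrays farthest from the median of probe 1, 0.841 within slide 1 and 0.9752 within slide 2. The agreement of this pair therefore held on both slides. Probes 1 and 3 gave r = 0.527 (permutation p = 0.0371, adjusted 0.0494) and rho = 0.485 (permutation p = 0.0595, adjusted 0.119), and r was 0.709 without the 2 farthest arrays. Within slide 1 their r was 0.037 and within slide 2 it was 0.832. Probes 2 and 3 gave r = 0.575 (permutation p = 0.0198, adjusted 0.0396) and rho = 0.394 (permutation p = 0.131, adjusted 0.175), falling to r = 0.271 without the 2 farthest arrays, so this relation rested on them. Within slides 1 and 2 it was 0.135 and 0.801. These within-slide values rest on 8 arrays each, and their difference between slides was not tested.

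**Figure D3:**
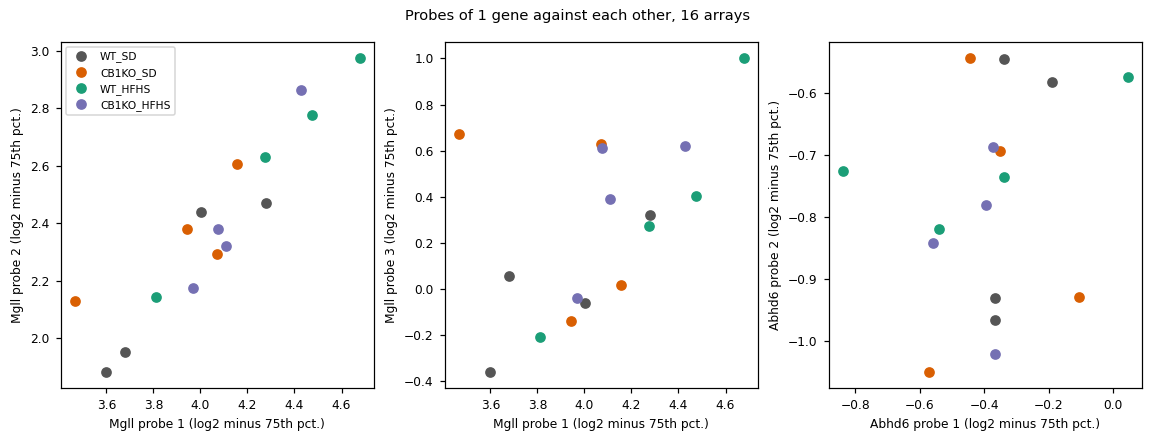
Log2 intensity minus the 75th percentile of 2 probes of the same gene against each other, 1 point per array coloured by group, for Mgll probes 1 and 2 (left), Mgll probes 1 and 3 (middle) and the 2 Abhd6 probes (right). Pearson's r over 16 arrays is 0.927, 0.527 and 0.234 in that order.

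Abhd6, a second hydrolase of 2-arachidonoylglycerol, had 2 probes of the same transcript (NM_025341), both well above background on all arrays. Probe 1 (A_55_P1984675) gave -0.37, -0.37, -0.34 and -0.19 in WT_SD, -0.35, -0.10, -0.45 and -0.57 in CB1KO_SD, -0.34, 0.04, -0.84 and -0.54 in WT_HFHS, and -0.37, -0.37, -0.39 and -0.56 in CB1KO_HFHS. Probe 2 (A_55_P2029366) gave -0.93, -0.97, -0.54 and -0.58, then -0.69, -0.93, -0.54 and -1.05, then -0.73, -0.57, -0.73 and -0.82, then -1.02, -0.69, -0.78 and -0.84 in the same group order. Means of the 4 groups lay within 0.11 of each other for probe 1 and within 0.12 for probe 2, less than the largest SD within a group (0.37 and 0.23). The averaged genotype difference was -0.029 ± 0.12 (interval -0.28 to 0.22) and -0.084 ± 0.10 (-0.30 to 0.14). On the deposited z-scores the first was 0.074 and the second 0. Across arrays the 2 probes gave r = 0.234 (permutation p = 0.392, adjusted 0.392) and rho = 0.300 (permutation p = 0.259, adjusted 0.259), with r = 0.200 without the 2 farthest arrays and 0.190 and 0.357 within slides 1 and 2.

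Naaa, the lysosomal acid amidase that hydrolyses N-acylethanolamines and is abundant in macrophages, had its highest mean in CB1KO_HFHS (A_51_P242201, NM_025972, well above background on all arrays). It measured 0.84, 0.91, 0.70 and 0.91 in WT_SD and 1.48, 0.36, 0.42 and 0.93 in CB1KO_SD. The values were 1.44, 0.89, 0.97 and 0.72 in WT_HFHS and 2.21, 1.42, 1.13 and 1.22 in CB1KO_HFHS. Replicate 1 was the highest array in each of CB1KO_SD, WT_HFHS and CB1KO_HFHS, and each group overlapped with its comparison group. In CB1KO mice, HFHS minus SD was 0.69 ± 0.27, with an interval of 0.11 to 1.28 (limma, unadjusted p = 0.0234, adjusted p = 0.428). That value was 0.45 without CB1KO_HFHS replicate 1 and 0.31 without it and CB1KO_SD replicate 2. CB1KO minus WT on HFHS was 0.49 ± 0.27 (interval -0.09 to 1.07, adjusted p = 0.635) and was 0.25 without CB1KO_HFHS replicate 1. Averaged over diets, the genotype difference was 0.22 ± 0.19 (adjusted p = 0.610), and the interaction was 0.53 with an interval of -0.30 to 1.35.

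Summed over 6 macrophage markers, the log2 level was 5.86 to 6.26 in WT_SD, 5.94 to 6.26 in CB1KO_SD, 6.04 to 6.36 in WT_HFHS and 6.18 to 6.65 in CB1KO_HFHS. Itgam, the brightest marker, carried most of this sum, at group means of 5.45 to 5.73. Gene by gene, 6 of 6 markers were above 0 for diet in CB1KO, with a median of 0.64 beside -0.087 for all probes, and 0 passed. For genotype on HFHS 5 of 6 were above 0, with a median of 0.60 beside -0.15, and 0 passed. Naaa differed by 0.69 and 0.49 in the same comparisons. Itgam itself went the other way for genotype on HFHS, with means of 5.73 in WT and 5.62 in CB1KO. For diet in WT 1 of 6 markers was above 0, with a median of -0.065, beside 0.16 for Naaa. For genotype on SD 3 of 6 were above 0, with a median of 0.052, beside -0.040 for Naaa. CB1KO_HFHS replicate 1 had the highest macrophage sum and the highest Naaa value, and also the highest adipocyte (8.34) and fibroblast (8.60) marker sums. For diet in CB1KO, 5 of 5 adipocyte markers (median 1.88) and 4 of 4 fibroblast markers (median 0.44) were also above 0. For genotype on HFHS these were 4 of 5 (median 0.28) and 3 of 4 (median 0.11), and 0 passed in either comparison. The part of macrophages or of these other cells in the Naaa differences was not tested.

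Faah, the main hydrolase of anandamide, was not well above background on any of the 16 arrays (A_52_P223704, NM_010173), with values between -6.63 and -4.26. These give only an upper bound on its level, and no difference between groups was drawn from them.

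**Figure D4:**
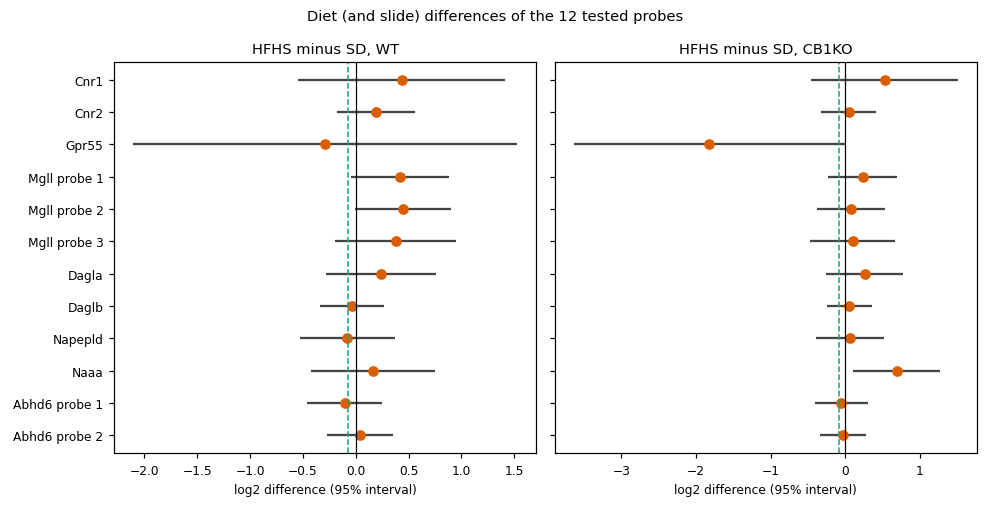
Log2 difference HFHS minus SD (x axis, points, with 95% intervals as lines) for the 12 tested probes (y axis) in WT and in CB1KO mice; the solid line marks 0 and the dashed line the median of all 40662 tested probes, and diet coincides with slide. In CB1KO the Naaa interval runs from 0.11 to 1.28 and the Gpr55 interval from -3.64 to -0.0047. Neither gene passed the threshold, and the widest intervals belong to Gpr55.

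Taking the 12 probes as a group, the median genotype difference was -0.044 on SD, -0.13 on HFHS and -0.050 averaged over diets, beside -0.12, -0.15 and -0.14 for all tested probes. Averaged over diets, 3 probes were above 0 and 9 below. The median diet difference was 0.18 in WT and 0.073 in CB1KO, beside -0.072 and -0.087 for all probes, with 8 and 9 of the 12 above 0. Genotype and diet comparisons share groups of arrays.

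Other genes of the pathway were read from 6 lists, of which 57 of 65 genes were tested by their brightest probe. Of the 57, 1 was higher in CB1KO on SD and averaged over diets, and 1 was lower on HFHS in CB1KO mice. In the other 3 comparisons 0 passed. The shares of all tested probes called were 0.00246% on SD, 0.787% averaged over diets and 0.0123% for diet in CB1KO. Each call among the 57 was Hspa1a, an inducible heat shock protein listed because it can carry anandamide inside cells. On SD, Hspa1a was the only call among all 40662 tested probes. Its mean was -1.18 ± 0.12 (SD, n = 4) in WT_SD, 2.21 ± 0.58 in CB1KO_SD, -0.73 ± 0.79 in WT_HFHS and -0.97 ± 0.61 in CB1KO_HFHS. On SD the genotype difference was 3.40 (adjusted p = 0.0222), which lost the call with only the groups compared (0.104) and without WT_SD replicate 1 (0.133), WT_SD replicate 3 (0.141), WT_SD replicate 4 (0.0509), CB1KO_SD replicate 3 (0.0619) or CB1KO_SD replicate 4 (0.141). Averaged over diets the genotype difference was 1.58 ± 0.28 (SE, adjusted p = 0.0213). It lost the call without WT_SD replicate 1, WT_SD replicate 3 or WT_HFHS replicate 4 (adjusted p = 0.0509, 0.0514 and 0.0517). A model of genotype plus slide as a block also lost it (adjusted p = 0.190). That model, unlike the main one, has no genotype-by-diet interaction, which was fitted at -3.64 for Hspa1a. In CB1KO mice HFHS minus SD was -3.18 ± 0.39 (adjusted p = 0.0310), and this call was lost with no filter on detection (0.0683), with the replicate block (0.0767), with only the groups compared (0.565) and without CB1KO_SD replicate 2 (0.0575), CB1KO_SD replicate 3 (0.146), CB1KO_HFHS replicate 2 (0.114) or CB1KO_HFHS replicate 3 (0.0989).

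Among the 6 intracellular carriers tested, which include fatty acid binding proteins, Alb (albumin) gave -0.78 ± 0.35 averaged over diets (adjusted p = 0.328) and -1.08 ± 0.50 for diet in CB1KO (adjusted p = 0.517), with 1 of 4 CB1KO_HFHS arrays well above background. Under normexp with quantile normalization these Alb values were -0.22 and -0.17. Other lipid and channel receptors had 9 of 14 genes tested. The orphan receptors Gpr18 and Gpr12, the N-acylethanolamine receptor Gpr119 and the channel Trpa1 were not well above background on any array. In that list 0 of 9 passed, with 4 of 9 above 0 averaged over diets and a median of -0.033. Trpv2, a cation channel that cannabidiol opens, was closest, at 0.013 ± 0.21 (SD, n = 4) in WT_SD, 0.43 ± 0.34 in CB1KO_SD, 0.019 ± 0.083 in WT_HFHS and 0.51 ± 0.13 in CB1KO_HFHS. Its averaged genotype difference was 0.45 ± 0.12 (SE, adjusted p = 0.0909). It passed with array weights (0.56, adjusted p = 0.00580), with each array's signal spread as a covariate (0.44, 0.0400), without CB1KO_SD replicate 2 (0.51, 0.0325) and without that array and CB1KO_HFHS replicate 1 (0.52, 0.0356). Gpr3, which raises cyclic AMP, gave -0.25 ± 0.13 (adjusted p = 0.386). For diet in CB1KO, the capsaicin receptor Trpv1 gave -0.94 ± 0.37 (adjusted p = 0.430), and -0.29 under normexp with quantile normalization. The cold receptor Trpm8 was well above background on 0 of 4 CB1KO_SD arrays and 1 of 4 CB1KO_HFHS arrays. Its fitted difference was -0.42 ± 0.27 (adjusted p = 0.648), and it turned to 0.013 under normexp.

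Other synthesis and breakdown enzymes had 14 of 15 genes tested and 0 called, with a median of 0.053 averaged over diets. There Inpp5d, an inositol phosphatase of blood cells, gave 0.48 ± 0.19 (adjusted p = 0.256) and Plaat3, a phospholipid acyltransferase, gave -0.26 ± 0.11 (adjusted p = 0.302). Diet in CB1KO gave -2.16 ± 0.63 (adjusted p = 0.251) for Ptgs2, the cyclooxygenase that can oxidise endocannabinoids, and 1.39 ± 0.42 (adjusted p = 0.268) for the phosphatase Ptpn22. Ptgs2 was well above background on 3 of 4 CB1KO_SD arrays and 1 of 4 CB1KO_HFHS arrays, so the size of its difference is uncertain. Under normexp with quantile normalization the values were -0.63 for Ptgs2 and 0.73 for Ptpn22. Of 4 phospholipase C beta genes, which supply diacylglycerol, 3 were tested. Their averaged genotype values included 0.16 ± 0.078 for Plcb4 (adjusted p = 0.375) and -0.043 ± 0.10 for Plcb3 (adjusted p = 0.864), and diet in CB1KO gave 0.12 ± 0.15 for Plcb3 and -0.074 ± 0.17 for Plcb1 (adjusted p = 0.788 and 0.890).

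All 8 genes listed as CB1 partners and desensitisation proteins were tested and 0 were called. For diet in CB1KO mice 8 of 8 were above 0, with a median of 0.22 beside -0.087 for all probes, and in WT mice 6 of 8, with a median of 0.18 beside -0.072. The largest of these in CB1KO was Arrb1, a beta-arrestin, at 0.56 ± 0.17 (adjusted p = 0.269), followed in p by the receptor kinase Grk5 at 0.32 ± 0.12 (adjusted p = 0.403). Averaged over diets, Grk5 gave 0.17 ± 0.086 (adjusted p = 0.375) and Sgip1, an inhibitor of CB1 internalisation, gave -0.36 ± 0.18 (adjusted p = 0.381), or -0.081 under normexp with quantile normalization. The G proteins and adenylyl cyclases had 17 of 17 genes tested and 0 called, with 8 of 17 above 0 averaged over diets. Adcy9, a cyclase, gave -0.34 ± 0.13 (adjusted p = 0.240) and the G protein subunit Gna13 gave -0.19 ± 0.10 (adjusted p = 0.409). Diet in CB1KO gave 0.64 ± 0.25 for Gnao1 and 0.37 ± 0.19 for Gnai2 (adjusted p = 0.424 and 0.566), both subunits of inhibitory G proteins. Without CB1KO_SD replicate 2 and CB1KO_HFHS replicate 1, Gnai2 was 0.040.

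Genes most like a member in pattern were read by Pearson's r over the 16 arrays among 17340 genes, as a description. This was done for Cnr1 and for members well above background on all 16 arrays, which left out Gpr55 and Faah. Mgll and Abhd6 were each read by probe 1, their brightest. The arrays share slides and signal spread, and the top values were picked from many. For Cnr1 the closest genes were Egfr (0.950), Snx30 (0.931) and Entpd2 (0.930), and for Cnr2 Pnn (0.918), Rad54l2 (0.917) and Wbp1 (0.904). Dagla was closest to Sec61a2 (0.941), Exoc8 (0.941) and Cyb561d1 (0.937), Daglb to Tmem208 (0.933), Glg1 (0.930) and Ccdc22 (0.920), and Napepld to Eif3j1 (0.911), Rbm25 (0.879) and Rtn4 (0.870). Mgll was closest to Elovl5 (0.905), a fatty acid elongase, then Mrps6 (0.868) and Cdc37l1 (0.866). Naaa was closest to C1s1 (0.950), a complement protease, then Rab32 (0.948) and Rnase4 (0.947). Abhd6 had weaker companions, Lrrc42 (0.846), Sft2d1 (0.675) and Adrb1 (0.670).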

How the data were processed

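Feature Extraction 11.5.1.1 produced the deposited spot files, per the file headers. Their processed intensity is background-corrected in each array and unscaled between arrays. The deposited series table holds a score that equalled each array's log2 processed intensity as a z-score over all spots, to within 0.005. Whether each sample's RNA was pooled is not given in the sources used here.

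Values were log2 processed intensities, from which the 75th percentile of the array was subtracted, with outlier spots set to missing (0.0169% of tested values) and repeated spots averaged. All 16 arrays entered a model of 4 group means in limma 3.58.1 (lmFit and eBayes, R 4.3.3) for probes with 4 or more arrays well above background, with 6 contrasts, two-sided, and adjusted p over all 40662 tested probes. RefSeq accessions in the spot files gave symbols to 28026 of 55681 probes through a gene table. Array grid and table differ in genome build, so no coordinates are given. Without strand or position, some members share their locus with another gene model in the table.

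The members, gene lists, tests and alternatives were chosen with earlier results of these data known. Named pathway genes were those past the threshold and, per list and contrast, up to 2 with the smallest p, given here for the averaged genotype contrast and for diet in CB1KO mice. Replicate numbers equal slide columns. Same-numbered arrays deviated from their group means with correlations between -0.74 and 0.60, and those for genotype on HFHS were positive (0.058 to 0.40). Array-wide differences such as signal spread enter these correlations, so they cannot show whether animals were paired. No pairing was used in the main fit. The arrays are labelled biological replicates, and their number limits the precision. The fitting code was tested on simulated data.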

Additional observations from a re-analysis of the deposited data

Results flagged for a closer look

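In 5 of 56 groups of 4 arrays (14 probes by 4 groups), 1 array lay far from the other 3, where chance gives about 1 group in 20. For Gpr55, CB1KO_HFHS replicate 1 was at -6.61 and the others at -4.63 to -4.48. For Faah, CB1KO_HFHS replicate 3 was at -4.26 and the others at -6.15 to -5.95. None of those Gpr55 and Faah spots was well above background. For Daglb, WT_SD replicate 3 was at 1.84 and the others at 2.04 to 2.07. Abhd6 probe 1 was at -0.19 in WT_SD replicate 4, with the others at -0.37 to -0.34, and at -0.56 in CB1KO_HFHS replicate 4, with the others at -0.39 to -0.37.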

How the results depend on the processing

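No probe of the 10 genes was called in any comparison under any alternative (22 each for the genotype effect on SD and on HFHS and for both diet effects, 30 for the averaged genotype effect and 29 for the interaction). The smallest adjusted p of a member over them was 0.265, 0.118 and 0.0750 for genotype on SD, on HFHS and averaged, 0.380 for the interaction, and 0.254 and 0.152 for diet in WT and CB1KO. Counts over all probes moved more: genotype on SD from 1 to between 0 and 435, on HFHS from 94 to between 17 and 3155, averaged from 320 to between 96 (replicate block) and 3049 (array weights), interaction from 0 to at most 10, diet in WT from 0 to at most 68, and diet in CB1KO from 5 to between 0 and 205. Calls averaged over diets split 120 higher to 200 lower, against 94 to 106 with no filter, 50 to 46 with the replicate block and 440 to 1771 with each array's signal spread as a covariate. The median of all probes there was -0.14, and -0.020, -0.049 and -0.039 under normexp with quantile, quantile and z-score scaling.

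Averaged over diets, Mgll probe 2 was 0.061 under normexp, and Cnr2, Mgll probe 1 and Mgll probe 2 were 0.026, 0.017 and 0.036 under quantile normalization. On z-scores, Cnr2 was 0.048, Mgll probe 2 0.048, Abhd6 probe 1 0.074, Abhd6 probe 2 0 and Plcb3 0.026. Mgll as the mean of its tested probes was 0.026. With array weights Cnr2 was 0.090 and Mgll probe 3 -0.038, and without CB1KO_SD replicate 2 and CB1KO_HFHS replicate 1 Cnr2 was 0.050 and Plcb3 0.021. For diet in CB1KO, Trpm8 was 0.013 under normexp, and Plcb1 was 0.058, 0.24 and 0.25 under normexp, quantile and z-scores. Leaving out 1 array gave averaged values of -0.084 to 0.034 for Cnr2, -0.13 to 0.48 for Gpr55, -0.16 to 0.0022 for Mgll probe 1, -0.097 to 0.042 for Mgll probe 2, -0.099 to 0.048 for Abhd6 probe 1 and -0.098 to 0.018 for Plcb3, and for diet in CB1KO -0.0016 to 0.19 for Plcb3 and -0.24 to 0.018 for Plcb1. The cause was not tested. Among other pathway genes averaged over diets, Alb passed with array weights (-1.24) and without the same 2 arrays (-1.15), Inpp5d with array weights (0.59) and Adcy9 with the signal covariate (-0.37).

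With the replicate number as a block, Dagla averaged over diets was -0.47 (adjusted p = 0.345), and the block ended 1 call among the named genes, that of Hspa1a for diet in CB1KO. Slide as a block was fitted only for the averaged genotype effect, as genotype plus slide with no interaction. Since slide coincides with diet, the 4 group means of the main model already take up slide.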
